A study of Mus musculus with 4 samples.

Results

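The genes described here are 36 genes of vascular and lymphatic endothelium, the cells that line blood and lymph vessels. They were taken by symbol from a list of surface and junction proteins, receptors, ligands, transcription factors and lymphatic genes. All 36 of the 36 had a probe set whose only gene symbol was the listed one, among 19938 genes measured in the same way, and each had 1 such probe set. The samples were testes of male mice, 2 labelled Lhcgr KO and 2 labelled control WT. Both groups had received 44 mg/kg busulfan, an alkylating drug that removes germ cells, and were killed 4 weeks later. Germ cell loss is thus likely in the control testes as well, but its extent in these samples was not checked here. The labels give no strain, age or description of the Lhcgr allele and do not say whether each sample came from 1 animal. P-values therefore cover only the spread between these 4 samples, some of which may be technical. The product of Lhcgr is the receptor through which luteinizing hormone makes Leydig cells produce testosterone. Lhcgr itself is not analysed here, and the genotype could not be checked on its probe set.

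Blood vessels of the testis run in the interstitium between the seminiferous tubules, beside the Leydig cells and macrophages. Vascular endothelial growth factor, made by Vegfa, acts on endothelial cells through the receptor Kdr, while Flt1 binds the same ligand tightly and limits its action. Angiopoietin 1 activates the receptor Tek and steadies vessels, and angiopoietin 2 can oppose it on the same receptor. The transcription factors Sox7, Sox17 and Sox18 form the SoxF family, which acts in arterial, venous and lymphatic development.

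The 4 arrays each gave 1 linear intensity per probe set, with array medians from 198 to 215 intensity units, and values below are log2 intensity. The lowest value on every array was 16 intensity units to the nearest whole unit, and no member came near it, the lowest values being 6.23 log2 units for Clec14a on Lhcgr KO replicate 2 and for Prox1 on Lhcgr KO replicate 1. A constant of 16 units in every value would shrink fold changes, those of weak genes most. The labels do not say whether one was added. With 16 subtracted before the log2 step, a setting chosen after seeing the data, the log2 fold change of Sox18 was 1.06, that of Angpt2 0.82 and that of Apln -1.60, and the members called were the same. Whether a probe set lay above background was not tested, as no detection calls were used. Control WT replicate 2 stood apart in markers of the epididymis and its ducts: 7 of 11 were over 1 log2 unit above all other arrays there. The summed intensity of those 11 markers was 1058 and 1106 on the Lhcgr KO arrays, against 1050 and 12407 on the control WT arrays. Epcam, an adhesion molecule of epithelia, was the duct marker that fell (log2 fold change -2.06 ± 0.40, limma adjusted p = 0.0484), and the median of the 11 was -0.98. Its adjusted p was over 0.05 after quantile normalization (0.0515), with 32 added (0.0545) or 16 subtracted (0.0713), with every probe set tested (0.0521), with a robust prior (0.209), without Lhcgr KO replicate 1 (0.220) and without replicate 2 (0.305). Epcam measured 6.37 log2 units on both Lhcgr KO arrays and 7.73 and 9.12 on the control WT arrays. Its log2 fold change was -1.36 without control WT replicate 2 and -2.75 without replicate 1. The number of arrays, 2 in each group, limits the precision of every value.

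Most endothelial genes did not pass the test, and a few members stood out in opposite directions. Sox18 and Angpt2 rose in the Lhcgr KO testes (limma, Benjamini-Hochberg adjusted p under 0.05 over all genes), no member fell, and 34 did not pass. Over all genes tested, 0.963% were called higher and 2.14% were called lower. The log2 fold change, Lhcgr KO over control WT, had a median of 0.0050 over the 36 members and of 0.07 over all genes. Its size, regardless of sign, had a median of 0.24 in the members against 0.19 over all genes. It was under 0.5 in 30 of the 36 members and in 18258 of all 19938 genes. The share at 0.5 or more was larger in the members, where the 6 were Sox18, Angpt2, Cdh5, Lmo2, Kdr and Apln. The members were chosen with earlier results of these data known, so this larger share is not evidence about endothelial genes.

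In 11 members both Lhcgr KO arrays lay above both control WT arrays, in 12 both lay below, and in 13 the groups overlapped. As shares these are 30.6% higher and 33.3% lower, where 36.8% of all genes lay apart upward and 22.4% downward. An unadjusted p under 0.05 was reached by 13 members, or 36.1%, beside 22.7% of all genes. Of the 13 members 6 pointed up and 7 down. The limit from the choice of members holds for these shares too. In bulk tissue, fewer endothelial cells and less RNA per cell cannot be told apart. Summed over the 36 members, intensity was 11228 and 11376 units in the Lhcgr KO testes, against 10563 and 10832 in the control WT testes. Such a sum weighs the brightest genes most. Pdpn, which other cells also carry, measured 1790 and 1635 units in the Lhcgr KO testes against 1207 and 1367. Cdh5 measured 1203 and 1169 units against 926 and 698. The sums therefore give no direction for the members as a set, whose log2 fold changes were positive in 19 and negative in 17.

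**Figure D1:**
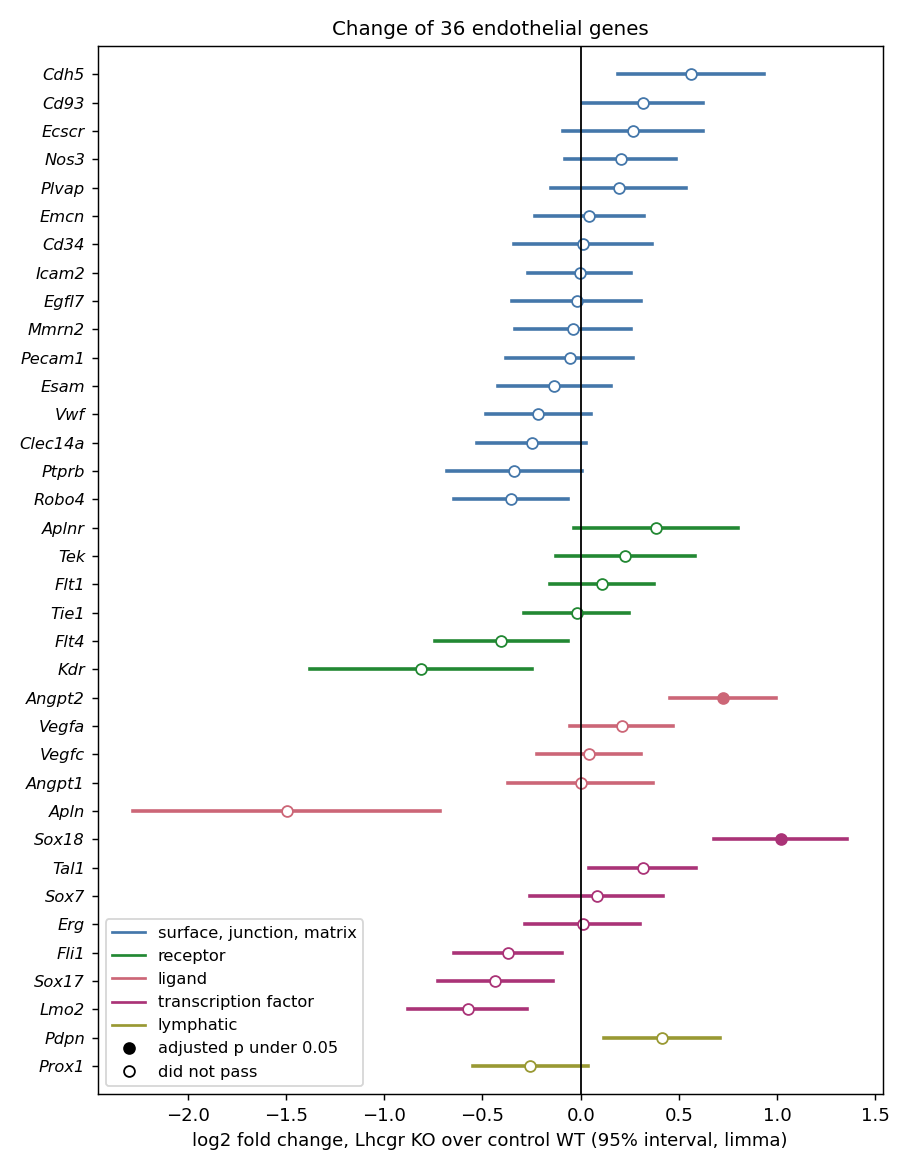
Log2 fold change of each of the 36 endothelial genes, Lhcgr KO over control WT, with its 95% confidence interval (limma, 2 arrays per group), ordered by role. Filled points are Sox18 and Angpt2, which passed at an adjusted p under 0.05, and Apln lies farthest to the left at -1.50 with an open point.

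Promoter sequence was available for 17 of the 36 members in a RefSeq table on GRCm38.p6, as 24 windows of 250 bases before to 50 bases after a gene start. Many endothelial genes are driven by ETS-family factors, to which Erg and Fli1 belong, so the windows were searched for an ETS motif on both strands. The letters searched were CAGGAAG, which read CTTCCTG on the other strand. They occurred in 7 of the 24 member windows (29.2%), from Apln, Cd34, Egfl7, Emcn, Erg and Robo4, and in 13.3% of all 32851 windows. Windows of several starts of 1 gene are not independent, and a match of letters is not a binding site. A hypoxia motif (ACGTG) was in 3 member windows, a GATA motif (AGATAA) in 4 and a SOX motif (ACAATG) in 1, against 19.6%, 11.2% and 12.6% of all windows. None of these other motifs occurs in the 5 windows below, so no match there overlaps another.

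Shown first are the windows with an ETS match from Apln and Robo4, whose groups lay apart downward, then those from Emcn and Cd34, whose groups overlapped, and last that of Kdr, which holds no match. They are printed so that the letters around the same motif can be compared between members that did and did not lie apart. Each runs 5′ to 3′ on the strand of its gene, with the match in capitals. Apln is at chrX:48034804-48035103 on the minus strand, Robo4 at chr9:37401722-37402021 on the plus strand and Emcn at chr3:137340828-137341127 on the plus strand. Cd34 is at chr1:194938571-194938870 on the plus strand and Kdr at chr5:75978406-75978705 on the minus strand.
Apln: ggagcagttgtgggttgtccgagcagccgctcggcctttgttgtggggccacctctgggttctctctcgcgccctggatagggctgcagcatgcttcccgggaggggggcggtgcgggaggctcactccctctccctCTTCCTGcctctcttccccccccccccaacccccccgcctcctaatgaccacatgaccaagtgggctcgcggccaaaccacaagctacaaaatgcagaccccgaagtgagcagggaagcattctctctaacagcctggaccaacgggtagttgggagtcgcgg
Robo4: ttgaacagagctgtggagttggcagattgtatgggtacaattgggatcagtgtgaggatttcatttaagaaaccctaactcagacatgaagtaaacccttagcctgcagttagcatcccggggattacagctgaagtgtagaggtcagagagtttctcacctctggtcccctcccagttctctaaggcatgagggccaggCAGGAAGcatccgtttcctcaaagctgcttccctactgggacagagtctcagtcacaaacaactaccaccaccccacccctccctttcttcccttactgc
Emcn: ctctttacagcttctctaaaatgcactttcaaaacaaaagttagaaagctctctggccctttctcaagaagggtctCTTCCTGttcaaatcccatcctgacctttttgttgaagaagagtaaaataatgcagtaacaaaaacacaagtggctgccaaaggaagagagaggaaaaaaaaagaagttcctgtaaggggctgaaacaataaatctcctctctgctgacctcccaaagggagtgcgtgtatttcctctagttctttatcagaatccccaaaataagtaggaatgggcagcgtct
Cd34: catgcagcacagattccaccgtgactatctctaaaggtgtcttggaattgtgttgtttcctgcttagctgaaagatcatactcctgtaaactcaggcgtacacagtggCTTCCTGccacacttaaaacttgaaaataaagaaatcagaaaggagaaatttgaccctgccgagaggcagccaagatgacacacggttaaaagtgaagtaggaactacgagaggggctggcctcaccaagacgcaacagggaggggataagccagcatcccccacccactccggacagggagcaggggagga
Kdr: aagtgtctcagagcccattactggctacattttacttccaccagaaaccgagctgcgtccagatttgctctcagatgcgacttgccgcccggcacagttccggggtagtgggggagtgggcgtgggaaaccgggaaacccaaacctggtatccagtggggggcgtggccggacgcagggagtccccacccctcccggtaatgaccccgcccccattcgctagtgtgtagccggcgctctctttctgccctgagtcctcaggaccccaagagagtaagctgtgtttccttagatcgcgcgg
The match begins 113 bases before the start in Apln, 50 in Robo4, 174 in Emcn and 142 in Cd34, and it reads CAGGAAG in Robo4 and CTTCCTG in the others.

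Among the 7 transcription factors, Sox18 rose, and the other 6 did not pass. Sox18 (probe set 10490731) measured 8.91 and 9.23 log2 units in the Lhcgr KO testes, against 8.02 and 8.09 in the control WT testes. Both Lhcgr KO arrays were above both control WT arrays, by more than either pair differed within itself. The rise was 2.02-fold, with a 95% confidence interval of 1.60 to 2.56, and the log2 fold change was 1.02 ± 0.14 (SE, limma adjusted p = 0.0181). Without Lhcgr KO replicate 1 it was 1.18 (adjusted p = 0.0890) and without replicate 2 it was 0.85 (adjusted p = 0.145), where only 0.0903% and 0.115% of all genes were still called. It passed without either control WT array (adjusted p = 0.0169 without replicate 1 and 0.0164 without replicate 2).

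Sox17, which acts in arterial endothelium, measured 6.76 and 6.67 log2 units in the Lhcgr KO testes and 7.06 and 7.25 in the control WT testes. Its groups lay apart in the other direction from Sox18, but it did not pass (log2 fold change -0.43 ± 0.12, adjusted p = 0.120). Sox7 overlapped between groups, with a log2 fold change of 0.083 and a 95% interval of -0.26 to 0.42. Taken within each array, which removes any scaling of the array, the difference Sox18 minus Sox17 was 1.45 log2 units higher in the Lhcgr KO testes. Centred on its mean over the 4 arrays it was 0.52 and 0.93 in the Lhcgr KO testes and -0.67 and -0.79 in the control WT testes. For Sox18 minus Sox7 the shift between groups was 0.93. With 2 arrays per group an exact two-sided permutation test of such a difference cannot go below p = 0.333, which is its value for both pairs.

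Lmo2 and Tal1 are partners in a transcription complex of endothelium and of blood-forming cells, and their values pointed opposite ways. Lmo2 measured 7.84 and 7.88 log2 units in the Lhcgr KO testes and 8.31 and 8.55 in the control WT testes. The log2 fold change was -0.58 ± 0.13 (adjusted p = 0.0710), and it passed without control WT replicate 1 (-0.70, adjusted p = 0.0390). Without control WT replicate 2 it was -0.45 (adjusted p = 0.208), and the adjusted p was 0.221 and 0.298 without Lhcgr KO replicate 1 or 2. Tal1 measured 7.67 and 7.75 in the Lhcgr KO testes, against 7.44 and 7.35 in the control WT testes (0.31 ± 0.11, adjusted p = 0.182). Both genes lay apart between groups on all arrays, and the members of the complex differed in sign. Of 11 measured red cell, megakaryocyte and platelet genes, in which Lmo2 and Tal1 also act, 1 fell and none rose, with a median log2 fold change of 0.10. Their summed intensity was 2232 and 2477 units in the Lhcgr KO testes and 3181 and 3493 in the control WT testes. The sum weighs the brightest genes most and went the other way from the median, so it gives no direction for the list. The part of these genes in the values of Lmo2 and Tal1 was not tested. Of the 11, 5 lay apart upward and 3 downward, where 36.8% and 22.4% of all genes did so. The gene that fell was Alas2, the first enzyme of heme synthesis in red cell precursors, with 6.40 and 7.28 log2 units in the Lhcgr KO testes and 9.40 and 9.61 in the control WT testes (-2.66 ± 0.27, adjusted p = 0.00709). Its change was -2.23 without Lhcgr KO replicate 1 and did not pass (adjusted p = 0.0598). Pf4, a platelet chemokine looked at after its values were seen, had the other large difference at -1.17 and did not pass (adjusted p = 0.0808).

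Of the ETS factors, Fli1 measured 7.50 and 7.60 log2 units in the Lhcgr KO testes and 7.86 and 7.97 in the control WT testes (log2 fold change -0.37 ± 0.12, adjusted p = 0.147). Fli1 is also active in blood cells, whereas Erg is the more endothelial of the pair. Erg did not separate the groups, with a log2 fold change of 0.0097 and a 95% interval of -0.28 to 0.30. The difference between Erg and Fli1 was not tested.

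**Figure D2:**
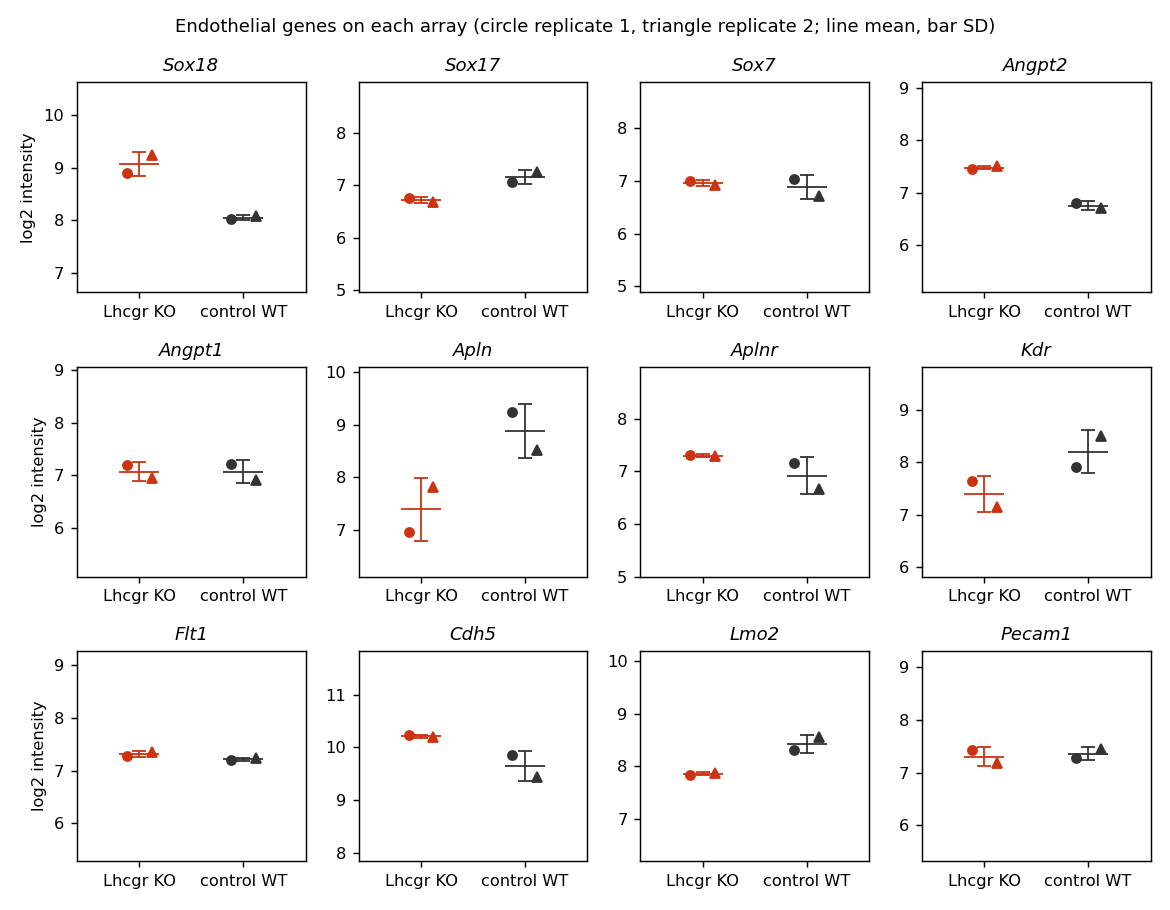
Log2 intensity of 12 endothelial genes on each array, Lhcgr KO left and control WT right, with circles for replicate 1, triangles for replicate 2, and the group mean ± SD; every panel spans the same height. The Sox18 and Angpt2 points of the Lhcgr KO testes lie above those of the control WT testes, those of Sox17, Apln, Kdr and Lmo2 lie below, and those of Sox7, Angpt1 and Pecam1 overlap.

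Of the 5 ligands, Angpt2 rose, and Apln had the largest difference of all 36 members without passing the test. Angpt2 (probe set 10577315), the angiopoietin that endothelial cells themselves release, measured 7.46 and 7.50 log2 units in the Lhcgr KO testes, against 6.81 and 6.70 in the control WT testes. The arrays of each group agreed within 0.11 log2 units, and the groups lay far outside that spread. The signal was weak, with the mean of Angpt2 over the arrays at percentile 33.9 of all genes. The rise was 1.65-fold with a 95% interval of 1.37 to 1.99, and the log2 fold change was 0.72 ± 0.11 (SE, limma adjusted p = 0.0261). It was 0.67 (adjusted p = 0.0604) without control WT replicate 2, where 3.25% of all genes were called, and 0.75 and 0.70 (adjusted p = 0.172 and 0.195) without Lhcgr KO replicate 1 or 2. Leaving out control WT replicate 1 kept the call (adjusted p = 0.0250).

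Angpt1, the activating ligand of the same receptor, overlapped between groups. It measured 7.20 and 6.94 log2 units in the Lhcgr KO testes and 7.22 and 6.92 in the control WT testes, with a 95% interval of the log2 fold change from -0.37 to 0.37. Within arrays the difference Angpt2 minus Angpt1 was 0.72 log2 units higher in the Lhcgr KO testes. Centred on its mean it was 0.21 and 0.51 in the Lhcgr KO testes and -0.46 and -0.26 in the control WT testes, with no overlap (exact permutation p = 0.333, the smallest possible).

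Apln (probe set 10604375) encodes apelin, a secreted ligand of the receptor Aplnr. It measured 6.97 and 7.82 log2 units in the Lhcgr KO testes and 9.26 and 8.52 in the control WT testes. Both Lhcgr KO values were below both control WT values, but the arrays within each group differed by more than those of any other member. The log2 fold change was -1.50 ± 0.33, with a 95% interval of -2.28 to -0.72 and an adjusted p of 0.0693. Without control WT replicate 2 the change was -1.86 and passed (adjusted p = 0.0102). It was -1.13 without control WT replicate 1 (adjusted p = 0.0670), -1.07 without Lhcgr KO replicate 1 and -1.92 without replicate 2, none of which passed. The summed intensity of 12 Leydig cell markers was likewise higher on control WT replicate 1 than on replicate 2. It was 8161 and 7862 units in the Lhcgr KO testes and 28760 and 17998 in the control WT testes. Between the Lhcgr KO arrays this sum went the other way from Apln, which was higher on replicate 2. Of these 12 markers, 6 fell and none rose, the largest falls being in Hsd3b6 (-6.81), Sult1e1 (-4.90), Ptgds (-4.49) and Ces1d (-4.01). Sult1e1 measured 5.04 and 4.27 log2 units in the Lhcgr KO testes, near the lowest array value of 16 intensity units. Its control WT arrays also lay far apart, so the size of its fall is uncertain. The steroid enzyme Hsd3b6 measured 5.75 and 5.17 log2 units in the Lhcgr KO testes and 12.21 and 12.32 in the control WT testes. Unlike Apln, Hsd3b6 was not higher on control WT replicate 1. Sult1e1 (10.96 and 8.14), Ptgds (11.37 and 9.30) and Ces1d (9.90 and 9.62) were higher there, as Apln was. On the Lhcgr KO arrays Ptgds and Ces1d were higher on replicate 2, as Apln was, while Hsd3b6 and Sult1e1 were lower. The calls of Sult1e1 and Ptgds were lost without either Lhcgr KO array and with a robust prior (adjusted p = 0.236 and 0.187), and that of Sult1e1 with 16 subtracted (0.0518). The part of Leydig cell RNA in the value of Apln was not tested.

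Vegfa measured 8.24 and 8.17 log2 units in the Lhcgr KO testes and 7.99 and 8.00 in the control WT testes. The groups lay apart by a small amount, with a log2 fold change of 0.21 ± 0.11 (adjusted p = 0.292). Vegfc, the main growth factor for lymphatic vessels, overlapped between groups (0.043, 95% interval -0.22 to 0.31).

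None of the 6 receptors passed the test, and Kdr and Aplnr lay apart in opposite directions. Kdr (probe set 10530692) measured 7.64 and 7.15 log2 units in the Lhcgr KO testes and 7.91 and 8.50 in the control WT testes. The 4 values did not overlap, yet the gap between the nearest arrays was smaller than the spread within either group. The log2 fold change was -0.81 ± 0.24 (adjusted p = 0.128), and it was -1.11 and passed without control WT replicate 1 (adjusted p = 0.0197), where 5.21% of all genes were called. Without control WT replicate 2 it was -0.52 (adjusted p = 0.296).

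Flt1 had a log2 fold change of 0.11 with a 95% interval of -0.16 to 0.37, and its groups overlapped after quantile normalization. Within arrays Flt1 minus Kdr was 0.92 log2 units higher in the Lhcgr KO testes, with centred values of 0.17 and 0.75 against -0.18 and -0.74 in the control WT testes. Flt4, the receptor for Vegfc, measured 6.45 and 6.49 in the Lhcgr KO testes and 6.71 and 7.04 in the control WT testes (-0.40 ± 0.14, adjusted p = 0.174), and -0.24 without control WT replicate 2 (adjusted p = 0.532). Its values were lower on both Lhcgr KO arrays, and the gap between the nearest arrays was smaller than the difference between the control arrays.

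Aplnr measured 7.32 and 7.28 log2 units in the Lhcgr KO testes and 7.17 and 6.67 in the control WT testes (0.38 ± 0.17, adjusted p = 0.243). Its log2 fold change was 0.14 without control WT replicate 2 (adjusted p = 0.720) and 0.63 without replicate 1 (adjusted p = 0.0568). Its groups lay apart upward while those of Apln lay apart downward, and within arrays Aplnr minus Apln was 1.88 log2 units higher in the Lhcgr KO testes. Apela, another ligand of Aplnr, was named outside the rule used for the other lists. It had a log2 fold change of 1.52, opposite in sign to Apln, and did not pass. Its values on single arrays and under the alternatives are not given here. The angiopoietin receptor Tek measured 7.05 and 7.39 in the Lhcgr KO testes and 6.92 and 7.06 in the control WT testes, with overlap (0.23 ± 0.15, adjusted p = 0.366). The value for Tek was 0.40 without Lhcgr KO replicate 1 and 0.057 without replicate 2. Tie1, a related receptor that modulates Tek, differed little (-0.020, 95% interval -0.29 to 0.25).

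The 16 surface, junction and matrix genes, which include the usual pan-endothelial markers, showed no change that passed. Their log2 fold changes ran from -0.36 to 0.56 with a median of -0.013, and 7 of them overlapped between groups. Pecam1, an adhesion molecule of endothelium, platelets and leukocytes, measured 7.43 and 7.18 log2 units in the Lhcgr KO testes and 7.27 and 7.45 in the control WT testes. Its log2 fold change was -0.057 with a 95% interval of -0.38 to 0.27, so a change as large as that of Sox18 lies outside its interval. Emcn, Icam2, Cd34, Egfl7 and Mmrn2 had values between -0.040 and 0.044, and their intervals together ran from -0.35 to 0.36. Plvap, the diaphragm protein of fenestrated endothelium, also overlapped (0.19, 95% interval -0.15 to 0.54).

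Cdh5, the cadherin of endothelial junctions, had the largest difference of the group. It measured 10.23 and 10.19 log2 units in the Lhcgr KO testes, against 9.85 and 9.45 in the control WT testes (0.56 ± 0.16, adjusted p = 0.117). The Lhcgr KO arrays nearly coincided and lay above the control arrays, which differed from each other. Without control WT replicate 1 the change was 0.76 and passed (adjusted p = 0.0267), and without replicate 2 it was 0.36 (adjusted p = 0.336). Within arrays Cdh5 minus Kdr was 1.37 log2 units higher in the Lhcgr KO testes, with centred values of 0.46 and 0.91 against -0.19 and -1.18 in the control WT testes. These 2 genes are both used as general endothelial markers, and here they lay apart between groups with opposite signs.

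Robo4, a guidance receptor that stabilises vessels, measured 8.23 and 8.28 log2 units in the Lhcgr KO testes and 8.71 and 8.51 in the control WT testes (-0.36 ± 0.12, adjusted p = 0.167). Its window, printed above, holds the ETS match nearest to a gene start of those shown. Cd93, a lectin-like receptor of endothelium and myeloid cells, measured 8.06 and 8.17 in the Lhcgr KO testes and 7.69 and 7.90 in the control WT testes (0.32 ± 0.13, adjusted p = 0.209). Ptprb, Clec14a, Vwf and Esam lay below the control arrays with log2 fold changes from -0.34 to -0.14, and Ecscr and Nos3 lay above with 0.27 and 0.20, none of them past the test. Without control WT replicate 2 the change was -0.17 for Ptprb (adjusted p = 0.658), 0.12 for Nos3 and, among those that overlapped, 0.10 for Plvap. After quantile normalization the groups of Nos3 overlapped and those of Icam2 lay apart downward.

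**Figure D3:**
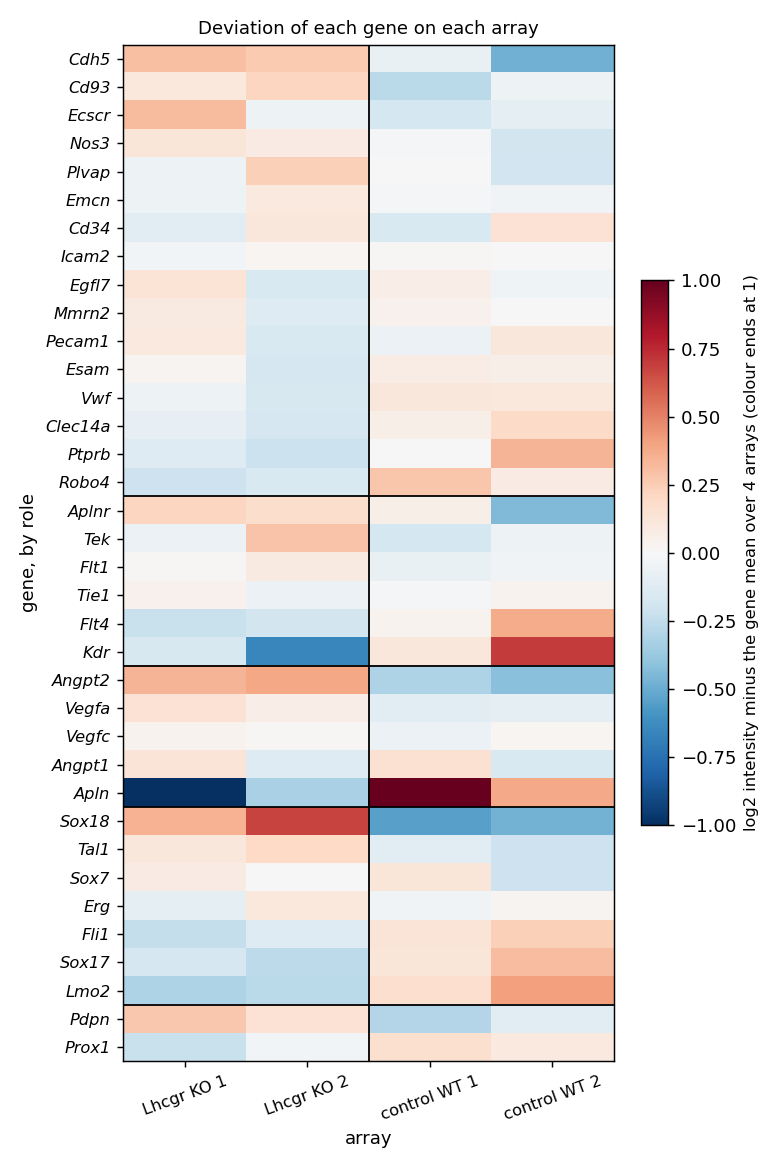
Log2 intensity of each endothelial gene on each array minus its mean over the 4 arrays, with genes in rows by role and the Lhcgr KO arrays left of the control WT arrays; red is above and blue below the mean, and colours end at 1 log2 unit. Apln, Sox18 and Kdr carry the deepest colours, and most surface genes are pale on all arrays.

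The lymphatic genes Prox1 and Pdpn pointed apart. Prox1, the transcription factor that sets lymphatic identity, measured 6.23 and 6.43 log2 units in the Lhcgr KO testes and 6.62 and 6.56 in the control WT testes (-0.26 ± 0.12, adjusted p = 0.258). Pdpn, a mucin-type membrane protein that other cells besides lymphatic endothelium also carry, measured 10.81 and 10.68 in the Lhcgr KO testes and 10.24 and 10.42 in the control WT testes (0.41 ± 0.12, adjusted p = 0.136). Of 11 further lymphatic genes measured, none rose and 1 fell. It was Reln, a secreted matrix glycoprotein of lymphatic vessels and of neurons, with 7.32 and 7.74 in the Lhcgr KO testes and 8.55 on both control WT arrays (-1.02 ± 0.16, adjusted p = 0.0261). Their median log2 fold change was -0.084.

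Few of the further vascular genes passed. Of 40 other genes enriched in endothelium, 1 rose, none fell and 39 did not pass, with a median log2 fold change of 0.055. The one that rose was Ephb4, a receptor typical of venous endothelium, with 9.30 log2 units on both Lhcgr KO arrays against 8.22 and 8.46 on the control WT arrays (0.97 ± 0.13, adjusted p = 0.0149). Of 31 other angiogenic signalling genes, 2 fell and none rose, with a median of 0.13. Vegfd, a growth factor of the same family that binds Flt4, measured 7.64 and 6.84 in the Lhcgr KO testes and 9.06 and 9.67 in the control WT testes (-2.13 ± 0.29, adjusted p = 0.0179). The chemokine receptor Cxcr4, which leukocytes also carry, measured 7.76 and 7.90 in the Lhcgr KO testes and 8.73 and 8.97 in the control WT testes (-1.02 ± 0.13, adjusted p = 0.0147). The calls of Ephb4, Vegfd, Cxcr4 and Reln were all lost when either Lhcgr KO array was left out, and that of Vegfd also with a robust prior (adjusted p = 0.0749).

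Of 15 pericyte and mural cell genes, which mark the cells that wrap vessels and also peritubular cells, none passed, with a median log2 fold change of 0.16. Those with the lowest p were Myh11, a smooth muscle myosin, with 10.35 and 9.88 log2 units in the Lhcgr KO testes and 9.44 on both control WT arrays (0.67 ± 0.17, adjusted p = 0.0971), and Vtn, vitronectin. Vtn measured 9.54 and 9.16 in the Lhcgr KO testes and 8.59 and 7.49 in the control WT testes (1.31 ± 0.34, adjusted p = 0.101), and it passed without control WT replicate 1 (1.86, adjusted p = 0.000704). The change was 0.76 without control WT replicate 2 (adjusted p = 0.0793), and with a robust prior its adjusted p was 0.224.

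Macrophages, which share Pecam1, Cd93, Fli1 and other members with endothelium, moved between the groups and between the control arrays. All 15 macrophage markers lay below the control values in the Lhcgr KO testes, as did 22.4% of all genes. Of the 15, 6 passed the test, where 2.14% of all genes were called lower, and the median log2 fold change was -0.84. Their summed intensity was 6200 and 6314 units in the Lhcgr KO testes and 10511 and 12716 in the control WT testes. Kdr, Flt4, Lmo2, Fli1, Sox17, Ptprb and Clec14a were likewise lower on both Lhcgr KO arrays and highest on control WT replicate 2. That array also held the high duct markers. The part of macrophage RNA or of duct RNA in these values was not tested. Apln, Robo4, Vwf, Esam and Prox1 were also lower on both Lhcgr KO arrays but highest on control WT replicate 1. Cd93 lay apart upward, and Pecam1 overlapped between groups. The macrophage markers that fell most were Lyz2, a lysozyme (-1.55 ± 0.18, adjusted p = 0.0109), the folate receptor Folr2 (-1.34), the growth factor receptor Csf1r (-1.02) and the lysosomal protein Cd68 (-0.95). These calls were lost without either Lhcgr KO array.

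The summed Sertoli cell markers, 11 in number, were 34011 and 34565 units in the Lhcgr KO testes and 34890 and 33724 in the control WT testes. These sums lay close together, while single markers passed the test in both directions. Of the 11, 7 lay apart upward and 2 downward, where 36.8% and 22.4% of all genes did so. The median log2 fold change was 0.16. Amh, a hormone of immature Sertoli cells, rose (0.80 ± 0.14, adjusted p = 0.0398), and Trf, the iron carrier transferrin, fell (-2.29 ± 0.24, adjusted p = 0.00746). Both calls were lost without either Lhcgr KO array, and that of Amh also with 16 subtracted (adjusted p = 0.0685), without control WT replicate 1 (0.0628) and with the replicate block (0.0631).

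**Figure D4:**
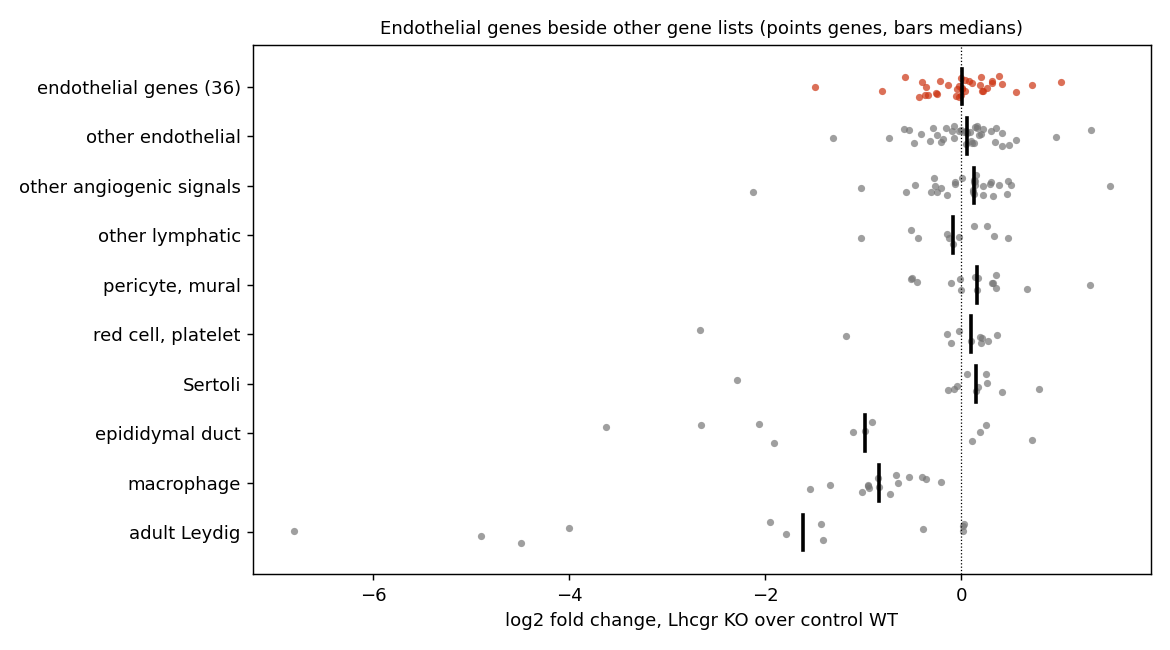
Log2 fold change, Lhcgr KO over control WT, of each gene (points) in the 36 endothelial genes and in 9 other gene lists, with the median of each list as a bar. The endothelial median is 0.0050, against -0.84 for macrophage and -1.61 for Leydig cell markers (the row named adult Leydig). The 4 other vascular lists have medians between -0.084 and 0.16.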

How the data were processed

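The deposited table holds 1 linear intensity per probe set and array for 28856 probe sets, made by the authors from 1-colour Affymetrix whole-transcript arrays hybridised with biotin-labelled sense-strand cDNA, per the labels' protocols. The build mm9 comes from the submitters' processing notes, while how the values were summarised and normalized was not given in the sources used here. Probe sets with a single symbol in the platform annotation (21789) were kept, the one with the highest mean per gene. These deposited intensities were taken to log2 and fitted with limma 3.58.1 in R 4.3.3 (lmFit, eBayes, no covariates, two-sided, Benjamini-Hochberg over 19938 genes, threshold 0.05).

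Members and lists were chosen with earlier results of these data known. Values on every array are given for members past the adjusted threshold or with an unadjusted p under 0.05, for the 3 lowest p in each role, and for Pecam1, Cdh5, Kdr, Tek, Vegfa and Prox1. Other lists are given by counts and up to 4 genes past the test, or the 2 with the lowest p. Pf4 and Apela were named outside this rule. The within-array pairs and the promoter motifs were chosen after values were seen. Each pair shift equals the difference between the log2 fold changes of its 2 genes, so it is not further evidence. Alternatives covered scaling, filters on low values, 32 intensity units added or, chosen after seeing the data, 16 subtracted, probe sets, the variance prior, each array left out, a replicate block and a threshold of 0.1.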

Additional observations from a re-analysis of the deposited data

How the results depend on the processing

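Of 512 member values under 15 alternatives, 476 kept their direction and their side of the threshold, 6 came to pass, 5 no longer passed and 25 changed sign. The 25 belong to 11 members that never passed, the largest being -0.15 for Angpt1. With single arrays left out, log2 fold changes ran from -0.18 to 0.066 for Pecam1, -0.031 to 0.12 for Emcn, -0.029 to 0.017 for Icam2, -0.14 to 0.16 for Cd34 and -0.15 to 0.066 for Mmrn2. They ran from -0.16 to 0.12 for Egfl7, -0.072 to 0.032 for Tie1, -0.15 to 0.15 for Angpt1, -0.080 to 0.24 for Sox7 and -0.088 to 0.11 for Erg. Quantile normalization turned Vegfc (-0.067), Angpt1 (-0.10), Sox7 (-0.020) and Erg (-0.095), centring each array on its median turned Cd34 (-0.0092), Angpt1 (-0.020) and Erg (-0.011), and adding 32 turned Angpt1 (-0.00011). The cause was not tested.

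The count of members called higher was 2, and from 0 to 3 with single arrays left out; it was 1 with the lowest 50% of genes left out, where only 12 members remained in the test. The count called lower was 0, and from 0 to 2 with single arrays left out. It was 1 with the lowest 50% left out and 1 with a robust prior, Lmo2 in both, and 2 at a threshold of 0.1 (Apln and Lmo2). The median log2 fold change of the members, 0.0050, ran from 0.0029 to 0.053 with single arrays left out and was -0.081 after quantile normalization, -0.015 after median centring and 0.13 with the lowest 50% left out. Leaving out the lowest 25% of genes removed 4 members. Leaving out the lowest 50% removed Angpt2, so Sox18 was the 1 member called higher there. Over all genes 618 were called, 779 with a trended and 806 with a robust prior, and 1244 at a threshold of 0.1. With a Lhcgr KO array left out 18 or 23 were called, and without control WT replicate 1 there were 1039.

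With the replicate number as a replicate block, Sox18 and Angpt2 passed as before, no member fell, 572 genes were called in all, and Vtn came to pass (adjusted p = 0.0284). Samples with the same number shared little, with a correlation of 0.02 between their deviations from the group means, so the numbers are not taken to pair them. The same alternatives were added for Ephb4, Vegfd, Cxcr4, Reln, Myh11 and Vtn and for the named macrophage, Leydig, blood, Sertoli and duct markers after seeing the data, as was the subtraction of 16, which changed no member's call.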
